A study of Mus musculus with 6 samples.

Results

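The 36 genes described here carry out glycolysis or respond to low oxygen. They comprise enzymes and transporters of glucose breakdown, the oxygen-regulated transcription factor subunit Hif1a, the prolyl hydroxylases Egln1 and Egln3, and targets of the hypoxia-inducible factor (HIF). They are a list of genes named for these roles, 36 of the 55471 genes in the deposited count table. All 36 were among the 13044 genes with enough counts to be tested.

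RNA was sequenced from cultured mouse undifferentiated pleomorphic sarcoma (UPS) cells, a line from a soft-tissue tumour that the labels call metastatic. There were 3 control libraries of genotype WT and 3 libraries of genotype Setd1a Knock Out, numbered 1 to 3 in each group. Setd1a encodes a methyltransferase that acts on lysine 4 of histone H3. All 6 came from cells kept in DMEM with fetal bovine serum and antibiotics, and the labels name no low-oxygen treatment, oxygen level or glucose level. Whether the knockout cells were 1 clone or a pool, and whether the libraries of a group came from separate cultures, is not given in the sources used here, so the p-values describe variation among these 6 libraries, some or all of which could be technical. The titles add a further tag that differs between the groups and whose meaning is not given; its effect and that of the knockout cannot be told apart.

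Glycolysis splits glucose into pyruvate in a chain of reactions in the cytosol, and lactate dehydrogenase then reduces pyruvate to lactate, which leaves the cell through monocarboxylate transporters. Oxygen sets the activity of HIF: with oxygen, prolyl hydroxylases mark the HIF alpha subunit for destruction through the von Hippel-Lindau protein, and without it the subunit binds its partner Arnt and activates genes that hold the core sequence ACGTG or GCGTG. Most glycolytic enzymes, Slc2a1, Pdk1, Vegfa, Car9 and Bnip3 are textbook HIF targets, and sarcomas of this kind often have hypoxic regions in the body. HIF alpha is controlled mainly as a protein, which RNA counts do not measure.

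Upstream sequences of 5 members are shown because their values carry the main patterns below: Ldha, Pgk1 and Tpi1 among the abundant enzymes, and Bnip3 and Slc16a3 among the genes that differed most between libraries of 1 group. Each is the 250 bases before a RefSeq transcription start on GRCm38.p6, read 5′ to 3′ on the gene's strand. Capitals mark ACGTG or GCGTG and their reverse complements CACGT and CACGC, the spellings of the HIF core on either strand; overlapping matches were merged into 1 run.
Ldha (chr7:46845554-46845803, plus strand): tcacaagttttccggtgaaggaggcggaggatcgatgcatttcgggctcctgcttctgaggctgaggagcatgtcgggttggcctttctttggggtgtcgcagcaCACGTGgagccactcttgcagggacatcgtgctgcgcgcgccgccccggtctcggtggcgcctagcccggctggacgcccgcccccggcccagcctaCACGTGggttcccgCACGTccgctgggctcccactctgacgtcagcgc
Pgk1 (chrX:106186850-106187099, plus strand): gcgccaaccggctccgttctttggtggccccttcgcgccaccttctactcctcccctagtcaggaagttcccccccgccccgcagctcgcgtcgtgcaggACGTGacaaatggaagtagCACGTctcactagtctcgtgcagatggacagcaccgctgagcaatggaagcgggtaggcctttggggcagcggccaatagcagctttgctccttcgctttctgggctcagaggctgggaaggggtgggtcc
Tpi1 (chr6:124814159-124814408, minus strand): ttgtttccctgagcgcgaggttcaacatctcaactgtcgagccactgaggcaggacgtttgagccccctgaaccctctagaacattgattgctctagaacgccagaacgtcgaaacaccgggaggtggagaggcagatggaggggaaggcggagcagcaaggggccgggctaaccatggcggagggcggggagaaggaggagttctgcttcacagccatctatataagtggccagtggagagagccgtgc
Bnip3 (chr7:138909507-138909756, minus strand): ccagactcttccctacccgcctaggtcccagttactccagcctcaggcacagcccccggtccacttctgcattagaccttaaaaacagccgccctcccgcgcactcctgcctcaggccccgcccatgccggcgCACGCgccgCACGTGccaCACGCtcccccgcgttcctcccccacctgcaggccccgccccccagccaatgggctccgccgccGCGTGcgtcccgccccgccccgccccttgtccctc
Slc16a3 (chr11:120948817-120949066, plus strand): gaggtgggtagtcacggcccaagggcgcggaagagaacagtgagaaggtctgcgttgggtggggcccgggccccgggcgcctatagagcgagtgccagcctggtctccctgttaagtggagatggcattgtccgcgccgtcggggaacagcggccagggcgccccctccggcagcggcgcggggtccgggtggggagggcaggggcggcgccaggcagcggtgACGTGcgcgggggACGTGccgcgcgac
The Ldha stretch holds 3 runs, 2 of them CACGTG, which reads the same on both strands. Pgk1 holds 2 runs, Bnip3 4 and Slc16a3 2, while Tpi1 holds 0. The stretches of Ldha, Slc16a3, Tpi1 and Bnip3 lie wholly or partly inside the GENCODE gene, and that of Pgk1 lies outside it. Among the 300-base windows of the RefSeq promoter table, which run from 250 bases before to 50 after a start, 34 of the 36 members had at least 1; Ndrg1 and Bnip3l had none. Of these 34 genes, 31 (91.2%) had a match in at least 1 window, against 68.7% of the tested genes with a window and 46.7% of all genes in that table. By window, 40 of 52 member windows (76.9%) held a match, against 62.5% for tested genes and 43.8% for the whole table. Eno2, Gpi1 and Tpi1 were the 3 genes without a match. A match describes letters in this window and no measured binding.

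Library totals lay between 17749533 and 18272622 counts, and levels are given as CPM, counts scaled to library size after TMM adjustment for library composition. At this depth 1 CPM is about 18 counts. Setd1a (ENSMUSG00000042308; chr7:127776670-127800122, plus strand on GRCm38) was measured at 71.0, 75.3 and 73.5 CPM in the controls and 53.2, 68.7 and 56.3 CPM in the knockouts, with a log2 difference of -0.30 ± 0.12 (SE, n = 3 per group; edgeR adjusted p = 0.426). The groups did not overlap. Gm49388, on the same strand, covers 52.3% of the exonic bases of Setd1a, and the counts do not show whether its coding sequence was disrupted. Transcripts of the mitochondrial genome took 2.50% to 3.03% of control counts and 3.48% to 3.91% of knockout counts; the part of this difference in the results below was not tested. Mesenchymal markers were high in every library (Vim, an intermediate filament, at 5175 to 6564 CPM), and summed over the 16 markers of that list reached 9686 to 10028 CPM in the controls and 8289 to 9677 CPM in the knockouts. The mesenchymal sums were lower in the knockouts and did not overlap, but only by a small margin (lowest control 9686 CPM, highest knockout 9677 CPM). Of the 16 markers, 13 (81.25%) had a log2 difference below 0, against 49.8% of all genes tested, with a median of -0.18. The part of this shift in the results below was not tested. Of the 12 leukocyte markers 4 had no count in any library (Adgre1, Cd3e, Nkg7 and S100a9), and the list summed to 20.3 to 22.6 CPM in the controls and 20.0 to 28.3 CPM in the knockouts, mostly Cd68 and Cd14. The 10 endothelial markers, mostly Flt1, with Cldn5 and Erg at 0, summed to 20.8, 24.1 and 27.0 CPM in the controls and 27.6, 34.6 and 33.6 CPM in the knockouts. These sums did not overlap, with the knockouts higher, and the part of this difference in the results below was not tested. The 10 epithelial markers summed to 50.9 to 86.2 CPM in the controls and 46.4 to 86.8 CPM in the knockouts, mostly Krt18 and Krt8, with Cldn7 at 0, and the 8 skeletal muscle markers summed to at most 0.110 CPM.

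The comparison of knockout and control asked how expression of these genes differed between the groups. None of the 36 members passed the test: edgeR's quasi-likelihood test called 0 members higher and 0 lower at an adjusted p under 0.05, and 0 also before adjustment. Over all genes that test called 0% in either direction; before adjustment, 5.5% had p under 0.05 with the knockouts higher and 4.51% with them lower. Of the 12 glycolytic enzymes at or above 100 CPM, 10 had means below the controls, with log2 differences between -0.30 for Pfkl and -0.09 for Pgam1, and Hk1 and Pfkp lay above. Hif1a and the glucose transporter Slc2a1 had estimates within 0.02 of 0. Across the members the median log2 difference was -0.08, and 21 of 36 (58.3%) lay below 0, against a median of 0.00 and 49.8% below 0 for all genes tested. The median of the members was 0.049 without knockout replicate 1 and -0.24 without knockout replicate 3.

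Libraries of the same number tended to deviate together from their group means, so a second test compared the knockout and control library of each number (the test with the replicate number as a block, here called the paired test). It too called 0 members in either direction at an adjusted p under 0.05, where it called 1.43% of all genes higher and 0.851% lower. Before adjustment it had 9 members lower (25.0%) and 2 higher (5.56%) with p under 0.05, against 9.62% and 9.94% of all genes. The 9 were Pfkl, Pdk1, Tpi1, Aldoa, Ldha, P4ha1, Mxi1, Pgk1 and Eno1, with edgeR adjusted p between 0.0680 for Pfkl and 0.221 for Eno1. The 2 were Ndrg1 (adjusted p = 0.120) and Pfkfb3 (adjusted p = 0.225). DESeq2 without pairing called 0 members (0.773% of all genes higher, 0.332% lower). With pairing DESeq2 called 2 members lower, Pfkl (adjusted p = 0.0403) and Tpi1 (adjusted p = 0.0435), against 1.33% of all genes lower and 1.33% higher. With all libraries in the fit, members were called only by DESeq2 with pairing. When the libraries of number 1 were left out of both groups, the edgeR paired test called Eno2 and Ndrg1 higher and Pfkl lower (log2 difference -0.34, adjusted p = 0.0405), where it called 3.87% of all genes higher and 1.58% lower. Without number 2 or without number 3 it called 0 members.

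**Figure D1:**
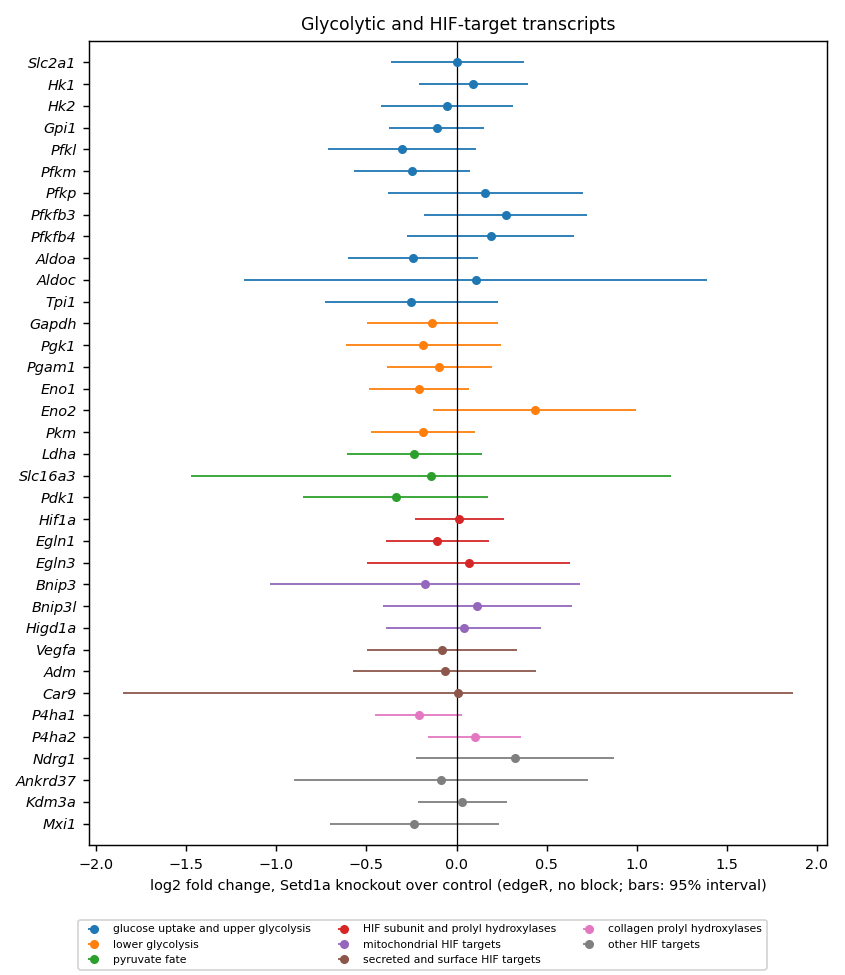
Log2 fold change of each of the 36 members, knockout over control, from edgeR without pairing; points are estimates, bars 95% intervals, and colours the role of the gene. Every interval spans 0, and the widest belong to Car9, Slc16a3 and Aldoc.

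Slc2a1 (GLUT1; chr4:119108711-119137983, plus strand; gene positions here and below are on GRCm38), the widespread importer of glucose, was measured at 159, 228 and 211 CPM in the controls and 157, 224 and 218 CPM in the knockouts. Replicate 1 was the lowest library of both groups, and the groups overlapped almost wholly. The log2 difference was 0.00 ± 0.17 (SE, n = 3 per group), with a 95% interval of -0.37 to 0.37 and an edgeR adjusted p of 0.998; the interval as a ratio ran from 0.776 to 1.30. Per kilobase of exon, Slc2a1 made up 97.2% ± 0.23 of the summed Slc2a1 and Slc2a3 level in the controls (SD, n = 3) and 96.8% ± 0.29 in the knockouts. Here and below, exon length is that of all annotated exons of a gene merged, which can exceed the length of the transcripts present. Levels and shares per kilobase therefore depend on the annotation.

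Hexokinases trap glucose as glucose 6-phosphate. Hk2 (chr6:82725025-82774454, minus strand), the isoform most often raised in tumours, was measured at 70.9, 101 and 80.3 CPM in the controls and 79.1, 97.7 and 66.6 CPM in the knockouts, with a log2 difference of -0.05 ± 0.17 (SE) and a 95% interval of -0.42 to 0.32 (edgeR adjusted p = 0.973). Hk1, the widely expressed isoform, was measured at 123, 149.5 and 171 CPM in the controls and 139.8, 164 and 170.2 CPM in the knockouts. Replicate 2 was the highest for Hk2 in both groups and replicate 3 for Hk1. Per kilobase of exon the pair was close to balanced, with Hk1 at 55.2% ± 4.52 of their sum in the controls (SD, n = 3) and 57.8% ± 5.51 in the knockouts. Gpi1, which turns glucose 6-phosphate into fructose 6-phosphate, was lower in the knockout library of every pair, at 769, 895 and 947 CPM in the controls and 754, 809 and 855 CPM in the knockouts. Of its exonic bases, 11.5% are shared with 1 or more other genes, the largest overlap being with an opposite-strand gene.

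Phosphofructokinase commits sugar to glycolysis, and its 3 isozymes did not lie on the same side of the controls. Pfkl (chr10:77986947-78010083, minus strand), the liver-type subunit, was measured at 156, 204 and 255 CPM in the controls and 135, 166 and 197 CPM in the knockouts. Each knockout library lay below the control of its number. Replicate 1 was the lowest and replicate 3 the highest library in both groups, and the groups overlapped. The log2 difference was -0.30 ± 0.18 (SE; edgeR adjusted p = 0.662) without pairing and -0.29 ± 0.07 (adjusted p = 0.0680) with it. Pfkm, the muscle-type subunit (chr15:98092589-98132451, plus strand), was measured at 28.7, 35.1 and 41.5 CPM in the controls and 28.1, 30.6 and 30.1 CPM in the knockouts, with a log2 difference of -0.25 ± 0.14 (SE, edgeR adjusted p = 0.635). Of its exonic bases, 10.7% are shared with 1 or more other genes, the largest overlap being with Gm26513 on the same strand. Pfkp, the platelet-type subunit, was measured at 82.6, 79.7 and 130.5 CPM in the controls and 81.6, 94.1 and 151 CPM in the knockouts, a log2 difference of 0.16 ± 0.24 (SE). Per kilobase of exon, Pfkl made up 61.3%, 64.9% and 63.3% of the summed isozymes in the controls and 58.3%, 60.5% and 59.2% in the knockouts, and Pfkp 16.2%, 12.7% and 16.1% against 17.5%, 17.1% and 22.7%. For both shares the groups did not overlap, with Pfkl lower and Pfkp higher in the knockouts. These shares were examined with the values known and have no test. The smallest p that 3 against 3 libraries can give in an exact two-sided permutation test is 0.1. Merged exon lengths were 6675 bases for Pfkl, 3340 for Pfkm and 13401 for Pfkp, and the size of each share depends on them.

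Pfkfb3 and Pfkfb4 make and remove fructose 2,6-bisphosphate, the activator of phosphofructokinase, and were the enzymes of this step with fewer counts. Pfkfb3 was higher in the knockout library of every pair, at 19.5, 23.3 and 14.3 CPM in the controls and 27.3, 24.1 and 17.7 CPM in the knockouts, with a log2 difference of 0.27 ± 0.20 (SE; edgeR adjusted p = 0.755). Replicate 3 was its lowest library in both groups. Pfkfb4 was measured at 4.43, 4.80 and 6.73 CPM in the controls and 5.78, 5.72 and 6.71 CPM in the knockouts.

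Aldolase and triose phosphate isomerase complete the upper pathway. Aldoa (chr7:126795234-126800751, minus strand) was measured at 1771, 2041 and 2490.0 CPM in the controls and 1486, 1801 and 2050.1 CPM in the knockouts, lower in the knockout library of every pair, with a log2 difference of -0.24 ± 0.16 (SE; edgeR adjusted p = 0.713) and an adjusted p of 0.137 with pairing. Tpi1 was measured at 1081, 1271 and 1646 CPM in the controls and 835, 1035 and 1493 CPM in the knockouts, also lower in every pair, with a log2 difference of -0.25 ± 0.22 (SE) without pairing and -0.27 ± 0.08 with it (edgeR adjusted p = 0.808 and 0.109). For both genes replicate 3 of the knockouts exceeded replicate 1 of the controls, so the groups overlapped. Aldoc, the brain-type aldolase, was far less abundant, at 3.32, 2.96 and 6.84 CPM in the controls and 1.65, 2.50 and 9.95 CPM in the knockouts, and took 0.180% ± 0.0587 of the aldolase level per kilobase in the controls. Its knockout libraries lay below the controls for numbers 1 and 2 and above for number 3.

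Lower glycolysis, which yields ATP, held the most abundant members. Gapdh (chr6:125161715-125166467, minus strand), which oxidises glyceraldehyde 3-phosphate, was measured at 7172, 7517 and 9589 CPM in the controls and 6506, 6952 and 8650.2 CPM in the knockouts, with a log2 difference of -0.14 ± 0.16 (SE; 95% interval -0.50 to 0.23; edgeR adjusted p = 0.898). Pgk1 (chrX:106187100-106203699, plus strand), the first ATP-forming kinase, was measured at 598, 633 and 858 CPM in the controls and 518, 521 and 799 CPM in the knockouts, with a log2 difference of -0.18 ± 0.19 (SE; 95% interval -0.62 to 0.25; edgeR adjusted p = 0.860). Both were highest in replicate 3 of each group and lower in the knockout library of every pair. Eno1 (chr4:150236721-150248879, plus strand), the main enolase, was measured at 2729, 3169 and 3350.3 CPM in the controls and 2567, 2659.8 and 2784 CPM in the knockouts; its knockout libraries lay within a narrow range that overlapped the lowest control. The log2 difference of Eno1 was -0.21 ± 0.12 (SE; edgeR adjusted p = 0.648).

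Pkm, pyruvate kinase, was measured at 4423, 4943 and 5506 CPM in the controls and 4293, 4171 and 4626 CPM in the knockouts, lower in every pair, with a log2 difference of -0.18 ± 0.13 (SE). Of its exonic bases, 15.3% are shared with 1 or more other genes, the largest overlap being with Gm49759 on the same strand. The counts do not separate the splice forms of Pkm. Pgam1, phosphoglycerate mutase, was measured at 226, 291 and 310.1 CPM in the controls and 238, 267 and 269 CPM in the knockouts, higher in the knockout for number 1 and lower for numbers 2 and 3. Eno2, the neuron-type enolase (chr6:124760053-124769673, minus strand), had the largest positive log2 difference of the members, 0.43 ± 0.25 (SE; edgeR adjusted p = 0.636), at only 6.47, 3.57 and 4.82 CPM in the controls and 5.01, 7.66 and 7.42 CPM in the knockouts. Its control replicate 1 lay above knockout replicate 1, so the groups overlapped. When number 1 was left out of both groups the paired test called Eno2 higher, with a log2 difference of 0.85 and an adjusted p of 0.00295. The log2 difference was 0.14 (edgeR adjusted p = 0.942) without number 2 and 0.34 (adjusted p = 0.592) without number 3.

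Summed over the 16 enzymes from hexokinase to lactate dehydrogenase, the controls held 21343, 23555 and 28182 CPM and the knockouts 19398, 20614 and 24644 CPM. The knockout mean was 0.885 of the control mean, and the ratio was 0.909, 0.875 and 0.874 within numbers 1, 2 and 3. The difference between the means was smaller than the control SD: the means were 24360.0 ± 3490.1 and 21552 ± 2746 CPM (SD, n = 3), and knockout replicate 3 lay above control replicates 1 and 2. The enzymes took 2.14%, 2.31% and 2.79% of all control counts and 1.94%, 2.06% and 2.53% of knockout counts. Gapdh and Pkm alone give much of this sum, so it is a description of abundant genes rather than of the pathway as a whole.

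**Figure D2:**
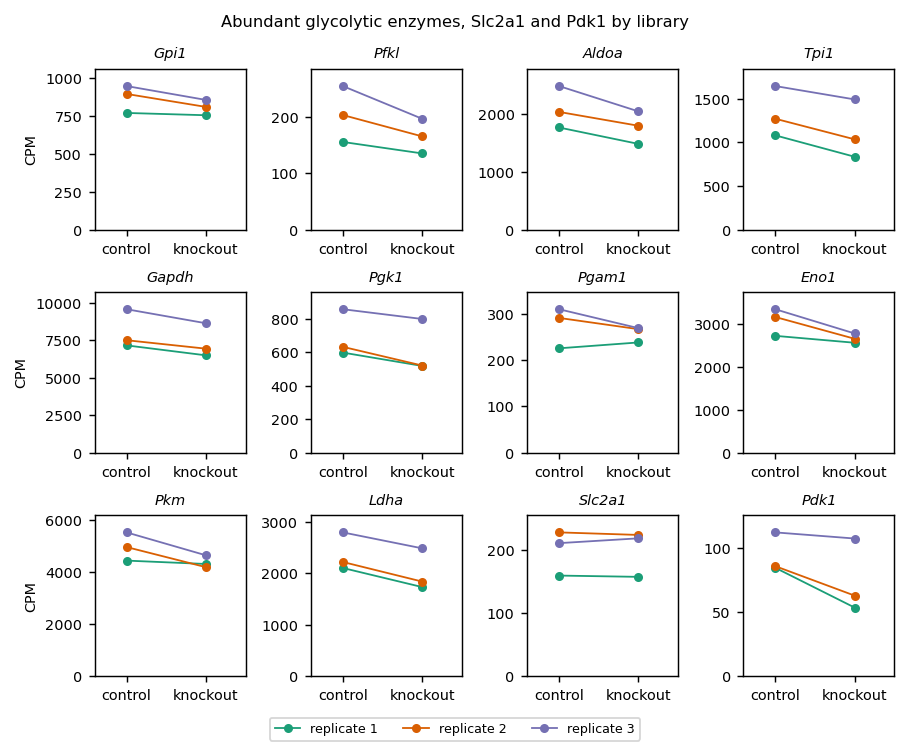
CPM (linear axes from 0) of 10 abundant glycolytic enzymes, Slc2a1 and Pdk1 in each library; lines join the control and knockout library of 1 replicate number. In 9 of the 10 enzymes all 3 lines slope down towards the knockout (Pgam1 is the exception), and replicate 3 is the top line in all 10. Hk1 and Pfkp, the other 2 enzymes at or above 100 CPM, are not drawn; their log2 differences were 0.09 and 0.16.

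Among all 36 members, 14 (38.9%) were lower in the knockout library of every pair and 2 (5.56%), Pfkfb3 and Ndrg1, were higher in every pair. The same counts over all genes tested were 21.6% lower and 19.9% higher, and among the 2347 genes with a mean of at least 100 CPM they were 24.6% and 11.3%. Of the 12 glycolytic enzymes at or above 100 CPM, 9 were lower in every pair and 0 higher. This description was chosen after the values were seen.

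Per kilobase of exon, the order of levels in the controls was led by Gapdh at 1958 ± 316 CPM per kilobase (SD, n = 3), Pkm at 991 ± 108, Aldoa at 722 ± 125 and Ldha at 717 ± 112, followed by Eno1 at 573 ± 59.4, Tpi1 at 484 ± 104 and Pgk1 at 310.3 ± 62.7. Aldoa and Ldha changed order between control libraries, at 608, 701 and 855 against 635, 671 and 845 CPM per kilobase. Eno1 lay above Tpi1 in every control library, and no test of the order was run. The order rests on merged exon lengths (4133 bases for Gapdh, 5379 for Eno1) and was not examined with transcript lengths. In the knockouts the same 7 genes led, with Gapdh at 1783 ± 274 and Ldha at 609.5 ± 123 CPM per kilobase. Reads of processed copies of these enzymes were few where the annotation names them as copies: the 13 such genes reached at most 3.52 CPM (Eno1b). Reads that matched several copies may have been left out or split, which the counts do not show.

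At the branch point after pyruvate, Ldha (chr7:46841475-46855627, plus strand), the lactate dehydrogenase of fast glycolysis, was measured at 2103, 2219.6 and 2796 CPM in the controls and 1730.2, 1837 and 2485 CPM in the knockouts. Every knockout library lay below the control of its number, while replicate 3 of the knockouts exceeded replicates 1 and 2 of the controls. The log2 difference was -0.23 ± 0.17 (SE; edgeR adjusted p = 0.741), and -0.24 ± 0.08 with pairing (adjusted p = 0.137). Ldha took 98.9% ± 0.34 of the summed Ldha and Ldhb level per kilobase in the controls (SD, n = 3) and 98.8% ± 0.31 in the knockouts.

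Pdk1 (chr2:71873224-71903858, plus strand), which inhibits pyruvate dehydrogenase, was measured at 84.7, 85.9 and 112 CPM in the controls and 53.5, 62.8 and 108 CPM in the knockouts. Knockout replicates 1 and 2 lay below every control, and knockout replicate 3 lay among the controls. The log2 difference was -0.34 ± 0.23 (SE; edgeR adjusted p = 0.718), the most negative of the members, and -0.39 ± 0.11 with pairing (adjusted p = 0.0904). Pdk3, a related kinase, was measured at 57.4, 53.0 and 67.1 CPM in the controls and 63.9, 56.8 and 70.2 CPM in the knockouts. Per kilobase Pdk1 made up 31.7%, 34.1% and 34.9% of the summed Pdk1, Pdk2 and Pdk3 level in the controls and 21.1%, 25.8% and 33.0% in the knockouts, so the share of knockout replicate 3 again lay within the range of the controls.

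Slc16a3 (MCT4), the lactate exporter of strongly glycolytic cells, was low and variable, at 5.42, 5.47 and 9.75 CPM in the controls and 1.71, 3.11 and 13.9 CPM in the knockouts. The knockout libraries spanned both the lowest and the highest value of all 6, and the log2 difference was -0.14 ± 0.60 (SE) without pairing and -0.47 ± 0.32 with it. Slc16a1 (MCT1), the widely expressed lactate transporter, was measured at 209.6, 266 and 217 CPM in the controls and 207, 236 and 192 CPM in the knockouts and took 97.5% of the summed Slc16a1 and Slc16a3 level per kilobase in both groups (SD 1.01 in the controls and 2.78 in the knockouts, n = 3).

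Of the oxygen-sensing members, Hif1a (chr12:73901375-73947530, plus strand) was measured at 248, 232 and 196 CPM in the controls and 223, 230.4 and 231 CPM in the knockouts. The knockout libraries lay within the range of the controls, and the log2 difference was 0.02 ± 0.11 (SE), with a 95% interval of -0.23 to 0.26 and an edgeR adjusted p of 0.987. Control replicate 3 was its lowest library, whereas for 27 of the 36 members it was the highest control. Epas1, which encodes the HIF-2 alpha subunit, stayed under 1 CPM in every library (0.498, 0.223 and 0.953 CPM in the controls and 0.496, 0.777 and 0.990 CPM in the knockouts).

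Egln1 (chr8:124908587-124949324, minus strand), the main HIF prolyl hydroxylase, was measured at 76.5, 89.4 and 97.3 CPM in the controls and 76.3, 74.9 and 93.3 CPM in the knockouts, with a log2 difference of -0.11 ± 0.13 (SE; 95% interval -0.39 to 0.18; edgeR adjusted p = 0.898). Egln3 (chr12:54178981-54203860, minus strand), which is itself induced by HIF, was measured at 19.8, 24.6 and 36.4 CPM in the controls and 23.0, 22.8 and 38.8 CPM in the knockouts, with a log2 difference of 0.07 ± 0.25 (SE; 95% interval -0.49 to 0.63; edgeR adjusted p = 0.974). Replicate 3 was the highest library of Egln3 in both groups by a wide margin, and the groups overlapped. Egln2, Vhl, Hif1an and Arnt were among 19 tested genes of a list of 21 other HIF pathway regulators. The test called 0 of the 19 in either direction, with or without pairing, and their median log2 difference was -0.02. The 3 with the smallest unadjusted p were Rbx1, a subunit of the von Hippel-Lindau ubiquitin ligase (log2 -0.21 ± 0.11, adjusted p = 0.588), Ubxn7, a ligase cofactor (log2 0.18 ± 0.11, adjusted p = 0.635), and Ep300, a HIF coactivator (log2 0.17 ± 0.11, adjusted p = 0.693; SE, edgeR).

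Bnip3, Bnip3l and Higd1a encode proteins of the mitochondrial membranes that HIF induces; the first 2 mark mitochondria for removal. Bnip3 (chr7:138890836-138909519, minus strand) was measured at 56.2, 52.8 and 92.6 CPM in the controls and 30.1, 43.9 and 105 CPM in the knockouts. The 3 knockout libraries spanned from below all controls to above all controls, and the log2 difference was -0.17 ± 0.39 (SE; 95% interval -1.03 to 0.68; edgeR adjusted p = 0.956). With pairing it was -0.31 ± 0.16 (adjusted p = 0.331). Of its exonic bases, 22.3% are shared with 1 or more other genes, the largest overlap being with the opposite-strand gene Gm45507. Whether counting used strand is not given in the sources used here. Bnip3l was measured at 109, 95.8 and 135 CPM in the controls and 92.7, 96.3 and 179.8 CPM in the knockouts and Higd1a at 24.7, 30.1 and 40.1 CPM in the controls and 27.9, 29.5 and 40.0 CPM in the knockouts. Replicate 3 was the highest of both genes in both groups. Of the exonic bases of Higd1a, 22.5% are shared with 1 or more other genes, the largest overlap being with Gm47112 on the opposite strand.

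Among secreted and surface products, Vegfa (chr17:46016993-46032369, minus strand), the growth factor for blood vessels, was measured at 82.9, 60.8 and 84.3 CPM in the controls and 60.3, 61.7 and 93.9 CPM in the knockouts, with a log2 difference of -0.08 ± 0.19 (SE; 95% interval -0.49 to 0.34; edgeR adjusted p = 0.959). Adm, the vasodilator adrenomedullin, was measured at 5.64, 7.43 and 4.43 CPM in the controls and 4.68, 5.66 and 6.38 CPM in the knockouts. Car9 (chr4:43506966-43513729, plus strand), the carbonic anhydrase widely used as a hypoxia marker, was near the limit of detection, with 22, 12 and 25 counts in the controls and 1, 6 and 53 in the knockouts, or 1.22, 0.670 and 1.40 CPM in the controls and 0.0551, 0.333 and 2.91 CPM in the knockouts. In number 1 the knockout to control ratio was 0.0452, with an exact 95% interval of 0.00110 to 0.280 that covers counting error only, and number 3 went the other way. The log2 difference of Car9 over all libraries was 0.01 ± 0.84 (SE; 95% interval -1.85 to 1.87).

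P4ha1 (chr10:59323296-59373304, plus strand) and P4ha2 encode the catalytic subunits of collagen prolyl hydroxylase, which stabilises the collagen triple helix. P4ha1 was measured at 192, 213 and 208 CPM in the controls and 157, 185 and 188 CPM in the knockouts. It was the 1 member of 36 (2.78%) whose groups did not overlap, with the knockouts lower; over all genes tested 7.77% did not overlap with the knockouts lower and 7.49% with the knockouts higher. Its log2 difference was -0.21 ± 0.11 (SE; edgeR adjusted p = 0.565) without pairing and -0.21 ± 0.07 (adjusted p = 0.145) with it. P4ha2 was measured at 28.6, 33.1 and 32.8 CPM in the controls and 33.0, 32.7 and 35.6 CPM in the knockouts. Per kilobase P4ha1 made up 90.8% ± 0.23 of the pair in the controls (SD, n = 3) and 88.8% ± 0.87 in the knockouts, with no overlap between groups and no test.

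The remaining targets differed in their pattern. Ndrg1, a stress-responsive gene linked to differentiation, was higher in the knockout library of every pair, at 46.5, 39.3 and 65.8 CPM in the controls and 49.6, 50.4 and 89.8 CPM in the knockouts, with a log2 difference of 0.32 ± 0.25 (SE; edgeR adjusted p = 0.765) and 0.30 ± 0.09 with pairing (adjusted p = 0.120). Without number 1 the paired test called it higher, with a log2 difference of 0.41 and an adjusted p of 0.0229. It was 0.29 (edgeR adjusted p = 0.447) without number 2 and 0.21 (adjusted p = 0.282) without number 3, and in the test without pairing it was -0.016 without knockout replicate 3. Mxi1, an antagonist of Myc, was lower in every pair, at 80.2, 68.7 and 97.1 CPM in the controls and 61.7, 51.7 and 95.8 CPM in the knockouts, with a log2 difference of -0.23 ± 0.21 (SE; edgeR adjusted p = 0.824). Kdm3a, a demethylase of lysine 9 of histone H3, was measured at 71.3, 62.5 and 62.9 CPM in the controls and 62.0, 65.6 and 73.4 CPM in the knockouts and varied little. Ankrd37 was measured at 2.77, 2.01 and 3.36 CPM in the controls and 1.43, 2.16 and 4.07 CPM in the knockouts. Of its exonic bases, 26.4% are shared with 1 or more other genes, the largest overlap being with Lrp2bp on the opposite strand.

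**Figure D3:**
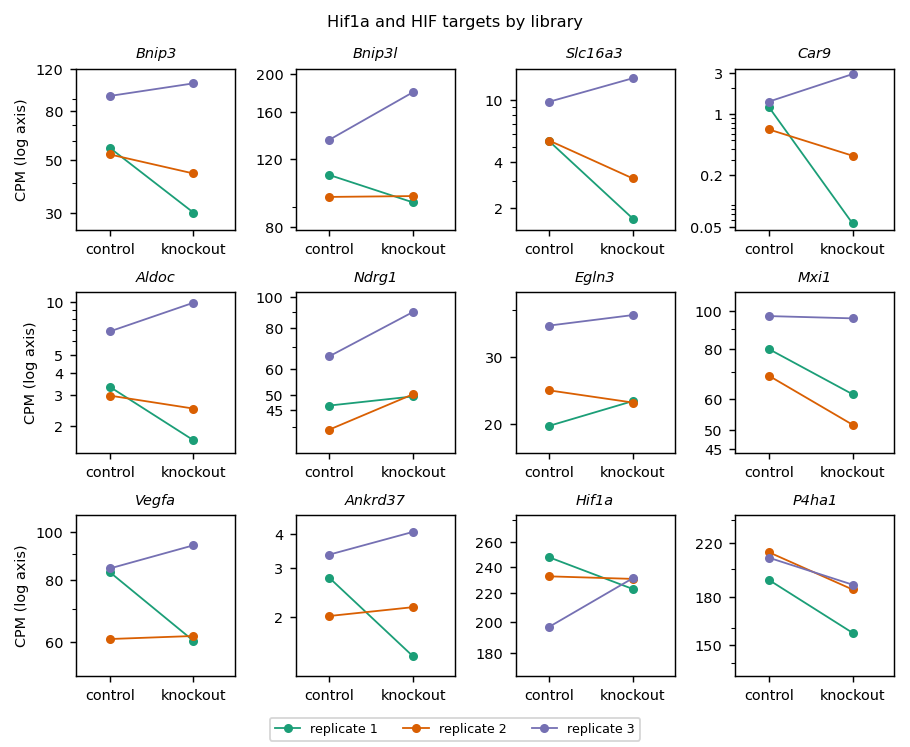
CPM (log axes, each panel with its own range) of Hif1a and 11 members induced by HIF in each library; lines join the control and knockout library of 1 replicate number. For Bnip3, Slc16a3, Car9, Aldoc and Hif1a the lines of replicates 1 and 2 slope down and that of replicate 3 slopes up. The line of replicate 2 is nearly flat for Hif1a. P4ha1 is the panel in which all knockout points lie below all control points.

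Many members varied with the replicate number. Replicate 3 was the highest library of both groups for 26 of 36 members (72.2%), against 21.6% of all genes tested. A test of the replicate number within the paired model, added after the values were seen, passed an adjusted p under 0.05 for 16 of 36 members (44.4%), against 4.85% of all genes and 9.37% of those at or above 100 CPM. The 16 were Pfkp, Ndrg1, Tpi1, Pfkl, Egln3, Pgk1, Bnip3, Aldoc, Slc2a1, Mxi1, Bnip3l, Pdk1, Higd1a, Slc16a3, Ldha and Aldoa, with edgeR adjusted p between 0.0117 for Pfkp and 0.0481 for Aldoa. All 3 mitochondrial targets and all 3 genes of pyruvate fate were among them. Hif1a and Egln1 were not (edgeR adjusted p = 0.575 and 0.132). Hk2, Gapdh and Vegfa missed the threshold more narrowly (edgeR adjusted p = 0.0662, 0.0700 and 0.0847), and Gapdh was highest in replicate 3 of both groups. Outside the members, the replicate term passed for 6 of 16 mesenchymal markers (37.5%). It passed for 3 of 29 other isozymes and branch enzymes of glycolysis (10.3%) and for 0 of 11 pentose phosphate genes. Replicate 3 was highest in both groups for 6.25%, 48.3% and 45.5% of these 3 lists. What a number marks is not given in the sources used here, so whether culture, extraction or sequencing differed between numbers was not tested. In bulk RNA, fewer cells with a gene on and less RNA per cell cannot be told apart.

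A HIF core match was present in 13 of the 14 genes with a window whose replicate term passed (92.9%) and in 18 of the 20 other members (90%). The Tpi1 window, of which 250 bases are printed above, holds no match, and its replicate term had an edgeR adjusted p of 0.0168. For Ldha, with 5 runs in the window printed in part above, it was 0.0437. Whether a match goes with variation between numbers was not tested.

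The difference between knockout and control also varied with the number. Within number 1 the members had a median log2 ratio, knockout over control, of -0.18, within number 2 of -0.14 and within number 3 of 0.00. Bnip3 had log2 ratios of -0.90, -0.27 and 0.18 for numbers 1, 2 and 3, Slc16a3 -1.67, -0.82 and 0.51, and Aldoc -1.01, -0.24 and 0.54. Pdk1 had -0.66, -0.45 and -0.06 and Vegfa -0.46, 0.02 and 0.16. The abundant enzymes varied less, with -0.28, -0.27 and -0.17 for Ldha, -0.25, -0.18 and -0.28 for Aldoa and -0.20, -0.30 and -0.37 for Pfkl. With 1 library of each group per number, the variation between numbers has no test.

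**Figure D4:**
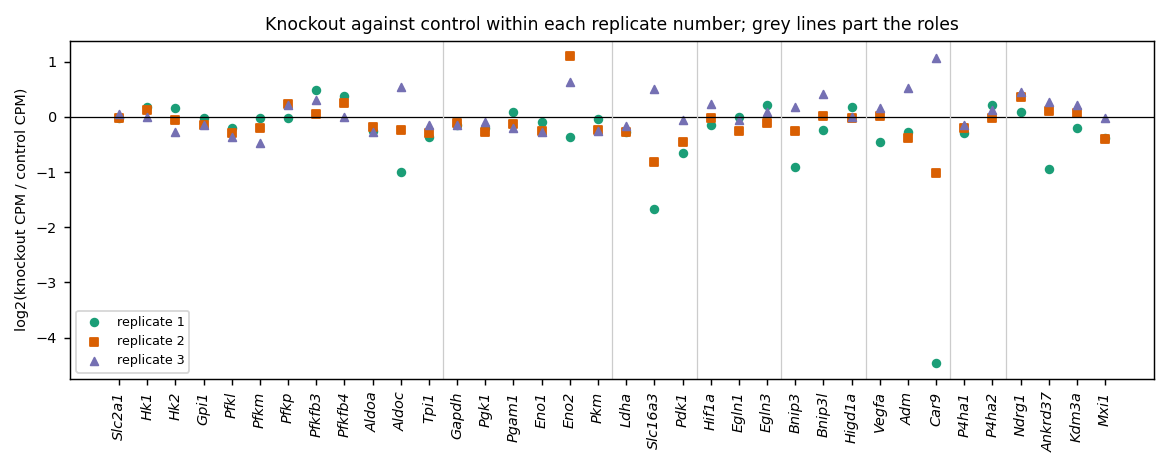
Log2 ratio of knockout to control CPM for each of the 36 members, with a marker for each replicate number; grey lines separate the roles. Most enzymes lie within a narrow band just below 0, whereas Slc16a3, Bnip3, Aldoc and Car9 lie below 0 for numbers 1 and 2 and above 0 for number 3. Adm, Hif1a and Slc2a1 have the same signs, with Slc2a1 close to 0 throughout.

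Neighbouring pathways were read from lists that hold none of the 36 members. Of the 44 other isozymes and branch enzymes of glycolysis, 29 were tested and 0 were called in either direction by either test; their median log2 difference was 0.01, and 14 of 29 lay below 0. The 3 with the smallest unadjusted p were Adpgk, an ADP-dependent glucokinase (109, 111 and 113 CPM in the controls and 87.9, 102 and 94.9 CPM in the knockouts; log2 -0.23 ± 0.10, adjusted p = 0.483), Gys1, the muscle-type glycogen synthase (log2 -0.25 ± 0.13, adjusted p = 0.558), and Slc2a3 (GLUT3; log2 0.22 ± 0.16, adjusted p = 0.751; SE, edgeR). In 3 of the 29 the groups did not overlap, with the knockouts lower in each, and in 0 with the knockouts higher. Over all genes tested these shares were 7.77% and 7.49%, and no test of the list was run.

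All 11 genes of the pentose phosphate pathway, which diverts glucose 6-phosphate to NADPH and ribose, were tested; 0 were called by either test and 9 of 11 (81.8%) had a log2 difference below 0, with a median of -0.14. H6pd, the glucose 6-phosphate dehydrogenase of the endoplasmic reticulum, was measured at 69.5, 85.5 and 78.0 CPM in the controls and 56.1, 65.9 and 63.5 CPM in the knockouts, with no overlap between groups (log2 -0.33 ± 0.12 (SE), edgeR adjusted p = 0.383; paired adjusted p = 0.0590). Prps2, which makes phosphoribosyl pyrophosphate, was measured at 48.1, 51.6 and 41.9 CPM in the controls and 38.5, 40.6 and 40.1 CPM in the knockouts (edgeR adjusted p = 0.515), and Shpk, sedoheptulokinase, at 1.05, 1.28 and 0.729 CPM in the controls and 0.441, 0.611 and 0.550 CPM in the knockouts (edgeR adjusted p = 0.420). In 5 of the 11 the groups did not overlap, with the knockouts lower. These are the lists' own counts beside the 7.77% of all genes given above, and no test of the list was run.

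Of 51 other HIF targets, 43 were tested, with a median log2 difference of -0.01 and 22 below 0. The edgeR test called 0 of the 43 in either direction without pairing. With it, 1 was called higher and 0 lower, against 1.43% and 0.851% of all genes. DESeq2 called 1 higher and 0 lower without pairing, against 0.773% and 0.332% of all genes. With pairing DESeq2 called 3 of the 43 higher and 0 lower, against 1.33% of all genes in each direction. Among those 3 were Lox, which crosslinks collagen (83.7, 75.2 and 37.9 CPM in the controls and 129.7, 82.3 and 54.8 CPM in the knockouts; log2 0.43 ± 0.10, SE, in the edgeR paired test, DESeq2 paired adjusted p = 0.0235), and Hmox1, a heme oxygenase (50.3, 28.4 and 45.7 CPM in the controls and 70.0, 42.9 and 52.1 CPM in the knockouts; log2 0.42 ± 0.10, SE; DESeq2 paired adjusted p = 0.0357), both named after their values were seen. The groups did not overlap for 4 of the 43, with the knockouts higher, and for 1 with them lower, against 7.49% and 7.77% of all genes tested. Of the genes named by smallest p, Stc2, a secreted glycoprotein, was lower without overlap, at 69.9, 64.3 and 70.9 CPM in the controls and 49.5, 52.3 and 60.4 CPM in the knockouts (log2 -0.34 ± 0.11 (SE), edgeR adjusted p = 0.356). Nfil3, a basic leucine zipper repressor, was measured at 26.6, 22.6 and 29.8 CPM in the controls and 14.6, 20.5 and 22.8 CPM in the knockouts (log2 -0.45 ± 0.18 (SE), edgeR adjusted p = 0.441). The replicate term passed for 9 of the 43 (20.9%), and replicate 3 was the highest of both groups for 18 (41.9%). Over all genes tested these shares were 4.85% and 21.6%.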

How the data were processed

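The authors deposited raw counts of reads for each Ensembl gene in 6 libraries, not normalized, in a single table. The tools listed per the submitters' processing notes are STAR, featureCounts and DESeq, and the build is mm10; the sources used here give no versions, strand setting or rule for reads with several matches. Columns were matched to samples by name. Of 55471 identifiers, 55230 matched GENCODE M21 on GRCm38, the assembly that mm10 names; unmatched identifiers held at most 0.00138% of the counts of a library. Within each group all pairs of libraries differed by more than sampling noise (chi-square per degree of freedom 19.0 to 35.3). For Aldoa, which has 2 identifiers, the one with more counts was used; the other reached at most 0.729 CPM.

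The tests ran in R 4.3.3 and edgeR 4.0.16 on all 6 libraries: TMM scaling, the filter on low counts by group (at least 99.87% of the counts of each library kept), and quasi-likelihood tests, two-sided, whose p-values were adjusted by Benjamini-Hochberg over the 13044 genes tested, with a threshold of 0.05. To check whether the replicate number pairs the libraries, deviations from group means were correlated across genes: same-number libraries gave 0.15, 0.46 and 0.38, and different numbers gave -0.45 to 0.05. All 3 exceed 0.1, the limit set for treating numbers as pairs, so the pairing comes from the data and not from the labels. Because the deviations of a group sum to 0 in each gene, positive same-number values force some different-number values below 0. The different-number values are therefore no independent contrast. The biological coefficient of variation was 0.143 and, when the block was added, 0.0960.

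Alternatives were DESeq2 1.42.0 with and without the block, limma-voom (limma 3.58.1), other scalings and filters, and leaving out each library or number. The tests were checked on simulated data. Intervals are at the 95% level. The members and gene lists were chosen with earlier results of these data known. In all, 12 members were given in full as anchors of the pathway, with any member that passed a test and the 6 with the smallest unadjusted p; of the other lists, called genes and the 3 with the smallest unadjusted p; 1 gene selected by this rule is not reported here. Promoter windows are RefSeq's.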

Additional observations from a re-analysis of the deposited data

How the results depend on the processing

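Over 17 alternatives, 49 single-gene results gave 829 values, of which 759 kept their direction and their side of the threshold, 59 changed sign, in 18 members, and 11 passed the threshold where the test without pairing did not. The count of genes called higher was 0 in the test without pairing, 187 with the replicate block, 93 in DESeq2, 157 in DESeq2 with the block and 62 with no low-count filter; the count lower was 0, 111, 40, 157 and 12. With the block and without number 1 it called 507 higher and 207 lower, without number 2 it called 140 and 54, and without number 3 it called 0 and 0. Leaving out 1 library gave 0 to 30 higher and 0 to 1 lower, the highest without knockout replicate 1. Members called lower numbered 2 in DESeq2 with the block (Pfkl and Tpi1); with the block and without number 1, 2 members were higher (Eno2 and Ndrg1) and 1 lower (Pfkl, log2 -0.34, adjusted p = 0.0405). The median log2 difference of the members ranged from -0.24 to 0.049 when 1 library was left out, being above 0 without knockout replicate 1, and the ratio of summed enzyme CPM ranged from 0.821 without knockout replicate 3 to 0.960 without control replicate 3 (0.902 with library totals alone).

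Signs reversed under 1 or more alternatives in 18 members, given here with their values. Without a low-count filter Slc2a1 was at -0.012 and Car9 at -0.0099; with the block Aldoc was at -0.10 and Car9 at -0.30, in DESeq2 with the block at -0.18 and -1.01, and in limma-voom at -0.23 and -1.27. With the block and without number 1 the log2 difference was 0.019 for Slc16a3, -0.0019 for Egln3, -0.014 for Higd1a, 0.089 for Vegfa, 0.043 for Adm and 0.21 for Ankrd37; without number 2 it was -0.076 for Aldoc, 0.14 for Adm and -0.22 for Car9; without number 3 it was -0.033 for Slc2a1, 0.041 for Hk2, -0.62 for Aldoc, -0.093 for Hif1a, -0.13 for Bnip3l, -2.24 for Car9 and -0.077 for Kdm3a. Leaving out 1 library at a time, the range was -0.14 to 0.16 for Slc2a1, -0.023 to 0.21 for Hk1, -0.20 to 0.11 for Hk2, -0.15 to 0.43 for Pfkp, -1.07 to 0.58 for Aldoc, -0.27 to 0.0040 for Gapdh, -1.51 to 0.32 for Slc16a3, -0.074 to 0.087 for Hif1a, -0.23 to 0.35 for Egln3, -0.86 to 0.16 for Bnip3, -0.26 to 0.30 for Bnip3l, -0.14 to 0.24 for Higd1a, -0.32 to 0.045 for Vegfa, -0.23 to 0.15 for Adm, -2.46 to 0.58 for Car9, -0.016 to 0.56 for Ndrg1, -0.59 to 0.21 for Ankrd37 and -0.040 to 0.093 for Kdm3a. The cause of these reversals was not tested.

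Among members with a mean under 10 CPM, the SE without pairing was 0.84 for Car9, 0.60 for Slc16a3, 0.58 for Aldoc and 0.37 for Ankrd37. It was 0.23 for Adm, 0.21 for Pfkfb4 and 0.25 for Eno2, near that of more abundant members such as Pfkp (0.24) and Ndrg1 (0.25). Bnip3, at a mean of 63.4 CPM, had an SE of 0.39, so the width of the intervals did not follow depth alone. With all 6 libraries in the fit, pairing moved no member past the threshold in edgeR.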
